A study of Mus musculus with 3 samples.

Results

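Dividing endothelial cells of mouse bone marrow are described here as 225 of 12790 barcodes that passed a cell filter, out of 15624 barcodes in all. A barcode marks 1 droplet, and a unique molecular identifier (UMI) marks 1 captured transcript. Members were chosen from the same UMI counts that are described below. They had at least 500 genes and at most 10% mitochondrial UMIs, at least 5 UMIs of Cdh5, Pecam1, Eng and Kdr together with at least 1 of Cdh5, fewer than 50 of Cxcl12, none of Cd79a, and at least 2 of Mki67 and Top2a together. By library the rule gave 94 (WT), 96 (FLOX) and 35 (VC) barcodes, of 3058, 3460 and 1773 endothelial barcodes. They were set beside the 7739 endothelial barcodes with no UMI of Mki67 or Top2a (2802, 3250 and 1687), called non-dividing below; 327 more had exactly 1 such UMI.

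Each library came from mice of 1 genotype on the C57Bl/6JCrl strain, and all mice had received tamoxifen by gavage. WT mice were wild type. FLOX mice carried Vegfc flox/flox, and their label names no Cre. VC mice carried Cdh5CreERT2 and Vegfc flox/flox, so that a tamoxifen-activated Cre under the Cdh5 (VE-cadherin) promoter could delete Vegfc, a growth factor gene, in endothelium. The libraries held endothelial cells and LepR+ stromal cells of digested tibial marrow; the labels give neither the age nor the number of the mice, nor the sort gates. With 1 library per genotype no test was possible, and the contrast of dividing with non-dividing barcodes is the one that chose the members, so all values are descriptions. Levels are CPM, a gene's UMIs per 1000000 UMIs of a group of barcodes, and unless stated otherwise a sentence gives members first and non-dividing barcodes after the word against. Ranges in parentheses are 95% intervals for counting error alone.

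Endothelial cells of adult marrow line arterioles, capillaries and wide, leaky sinusoids, and most of them are thought to be out of the cell cycle at any moment. A cell that enters the cycle first makes cyclin D and E and the licensing and replication proteins that copy its DNA, then the kinesins, kinetochore proteins and cyclin B that separate the chromosomes. Mki67 encodes Ki-67, a protein that coats mitotic chromosomes and is made mainly by cycling cells, and Top2a encodes the topoisomerase that untangles copied DNA. Genes of replication are driven largely by E2F factors. Genes of mitosis are controlled, up or down, by the DREAM and MuvB complexes and by NF-Y, which bind the CHR and CCAAT elements of their promoters.

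The label was checked first, and it held only in part. Of the markers that the rule did not use, Cenpf, Prc1 and Nusap1, at least 1 UMI of any was present in 47 of 94 WT, 67 of 96 FLOX and 26 of 35 VC members, against 123, 50 and 26 non-dividing barcodes (4.39%, 1.54% and 1.54%). Members were also deeper, with medians of 18609, 17512.5 and 17671 UMIs against 10830.5, 7436 and 10201. Many members carried transcripts of blood cells as well. The summed neutrophil list (S100a8, S100a9, Ngp, Camp, Ltf and Lcn2, granule proteins) stood at 5051 (WT), 83355 (FLOX) and 43169.5 (VC) CPM in members, against 503, 2778 and 3154 CPM in non-dividing barcodes. The myeloid progenitor list, led by Elane and Mpo, stood at 3828, 1019.6 and 13.8 CPM against 19.2, 16.4 and 7.17. A haematopoietic mark was therefore set after these values had been seen, at 5 to 50 UMIs of any of 8 blood cell lists. It was met by 22 of 94 WT (23.4%), 45 of 96 FLOX (46.9%) and 9 of 35 VC members (25.7%), and by 2.21%, 2.71% and 3.56% of non-dividing barcodes. The mark is a count not scaled to depth, so the deeper members could meet it more easily. With each barcode drawn down to 2000 UMIs, at least 3 UMIs of the neutrophil list were in 9.57% (WT), 35.4% (FLOX) and 20% (VC) of members. In non-dividing barcodes these shares were 6.06%, 3.24% and 3.65%.

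Endothelial transcripts made up a smaller share of the UMIs in marked members than in unmarked ones. The list of endothelial identity genes outside the rule (Erg, Tie1, Cldn5, Flt1 and 10 more) summed to 2766, 3054 and 4107.6 CPM in marked members of WT, FLOX and VC, to 6006, 5353 and 5059.6 CPM in unmarked members, and to 6495, 6279 and 6516 CPM in unmarked non-dividing barcodes. Only marked members fell below 1000 CPM of the identity and sinusoidal lists together, 2 in WT, 2 in FLOX and 1 in VC. Median depths of marked members were 26188, 27569 and 30891 UMIs, above the 17126.5, 11844 and 15039.5 UMIs of unmarked ones. In number, the medians of Cdh5, Pecam1, Eng and Kdr together were 47.5, 36 and 85 UMIs in marked and 70, 39 and 45.5 UMIs in unmarked members. Scrublet, a doublet caller, called 0 WT, 3 FLOX and 0 VC members, and the part of doublets in the marked members was not tested. In the 149 unmarked members (72, 51 and 26), Ptprc, which encodes the leukocyte antigen CD45, had 2, 1 and 0 UMIs in all. The pan leukocyte list stood at 114, 105 and 70.7 CPM against 105, 92.4 and 90.6 CPM in unmarked non-dividing barcodes. That list, which includes Ptprc, is part of the mark and is held under 10 UMIs in each unmarked barcode. These low values are thus fixed in part by the mark. Results below are for unmarked barcodes unless said otherwise, with values for all 225 members beside some of them. Results without such values can differ with marked barcodes kept too.

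**Figure D1:**
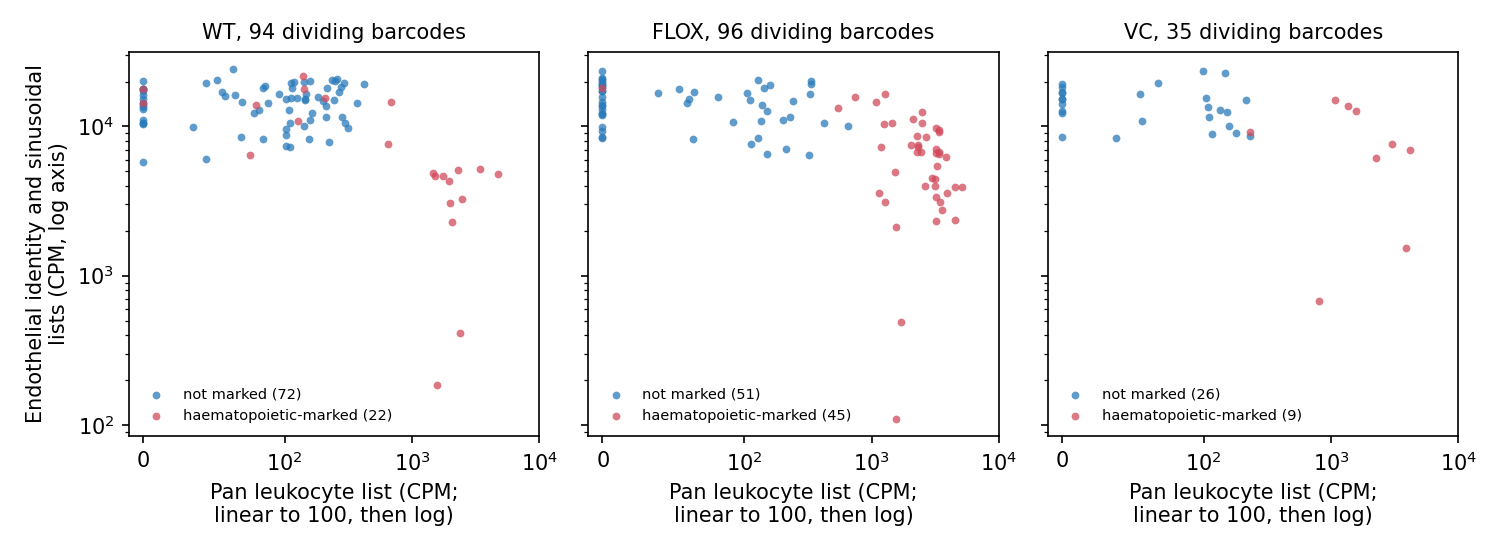
Each point is 1 of the 225 dividing barcodes, by library; the x axis is the pan leukocyte list (6 genes) and the y axis the endothelial identity and sinusoidal lists together, both in CPM of the barcode. Marked members (22, 45 and 9) hold most of the high leukocyte and low endothelial values, while the lowest unmarked member on the endothelial axis lies at 5822 (WT), 6453 (FLOX) or 8403 (VC) CPM. The pan leukocyte list is part of the mark, so the split along the x axis is fixed in part by it.

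The threshold of 2 UMIs separated weakly. Just outside it, unmarked barcodes with 1 UMI of Mki67 and Top2a had 1107 CPM (WT, 151 barcodes), 1201 CPM (FLOX, 107) and 1334 CPM (VC, 41) of the mitosis lists (kinetochore, spindle and mitotic exit genes with Cdk1, B cyclins, Cenpf, Prc1 and Nusap1), against 1096, 1125 and 1087 CPM at 0 UMIs. Just inside it, those with exactly 2 UMIs had 1184 CPM (32 barcodes), 1901 CPM (17) and 1587 CPM (4). At 6 UMIs or more the mitosis lists reached 14416 CPM (28 barcodes), 13750.6 CPM (27) and 13290.2 CPM (19). WT members with exactly 2 UMIs thus lay close to the non-dividing level for mitosis genes, and they made up 32 of 72 unmarked WT members. The replication lists were higher at lower counts already, with 645, 621 and 589.8 CPM at 0 UMIs, 676, 835 and 1135 CPM at 1 UMI, 1163, 2516 and 2129 CPM at 2 UMIs and 3401, 4542 and 5308 CPM at 6 or more. The 74 unmarked members with at least 6 UMIs are called the high group below.

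**Figure D2:**
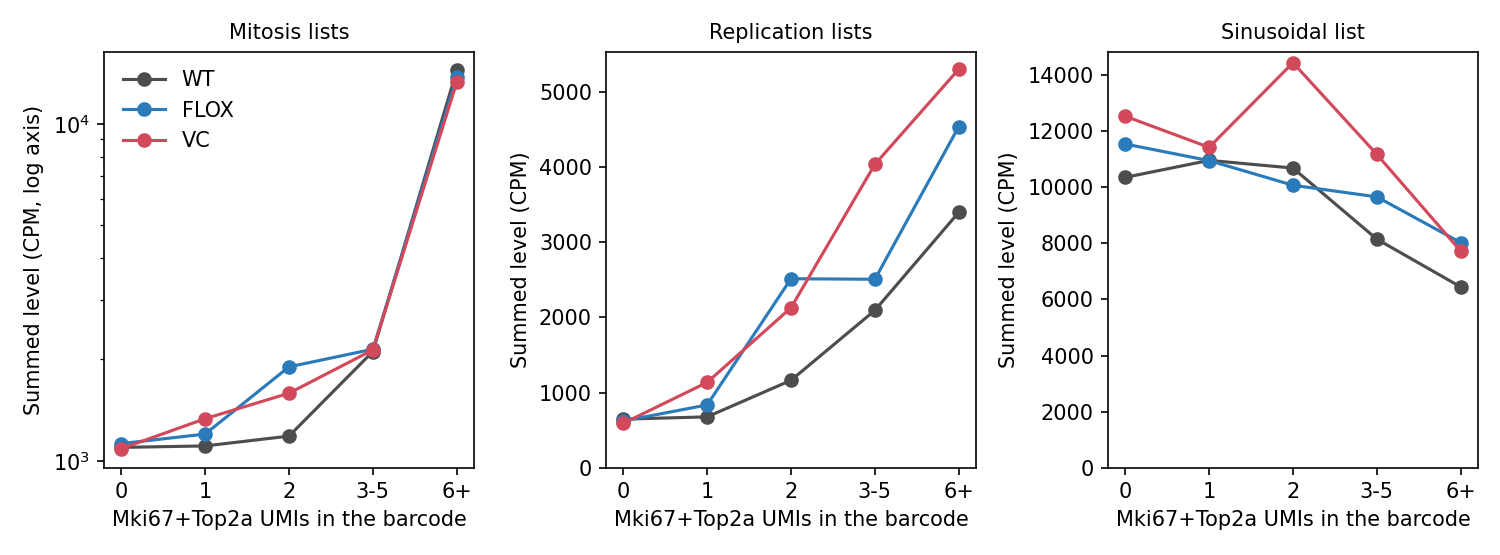
Summed levels of the mitosis, replication and sinusoidal lists (CPM, y axes; the mitosis axis is logarithmic) in unmarked endothelial barcodes with 0, 1, 2, 3 to 5 and 6 or more UMIs of Mki67 and Top2a (x axes), 1 line per library. Mitosis genes reach 13290.2 to 14416 CPM only in the last bin, replication genes are highest in the last bin (3401 to 5308 CPM), and sinusoidal genes are lowest in the last bin in all 3 libraries.

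The promoters of 3 genes that carry the division programme are shown with the elements named above, because the summed levels of mitosis and of replication genes were both higher in members. They come from RefSeq (GRCm38.p6, the build that the submitters' notes call mm10) and cover the 250 bases before the annotated start, 5′ to 3′ on the gene's strand, which is the reverse strand for all 3. Capitals mark matches, on either strand, to the CHR (TTTGAA), the CCAAT box (CCAAT) and 4 forms of the E2F site (TTTGGCGC, TTTCCCGC, TTTGCCGC and TTTCGCGC).
Top2a promoter, chr11:99024190-99024439: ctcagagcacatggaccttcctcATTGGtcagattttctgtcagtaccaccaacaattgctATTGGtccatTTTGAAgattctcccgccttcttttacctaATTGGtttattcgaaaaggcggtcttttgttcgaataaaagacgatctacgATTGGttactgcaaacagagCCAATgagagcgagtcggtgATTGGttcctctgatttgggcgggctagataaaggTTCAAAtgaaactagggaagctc
Cdk1 promoter, chr10:69352913-69353162: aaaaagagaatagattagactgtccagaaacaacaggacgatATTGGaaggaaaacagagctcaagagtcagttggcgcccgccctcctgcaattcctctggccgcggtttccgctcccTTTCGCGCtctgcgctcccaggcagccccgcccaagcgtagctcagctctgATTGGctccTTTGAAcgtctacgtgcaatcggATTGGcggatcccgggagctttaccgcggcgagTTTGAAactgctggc
Mcm6 promoter, chr1:128359706-128359955: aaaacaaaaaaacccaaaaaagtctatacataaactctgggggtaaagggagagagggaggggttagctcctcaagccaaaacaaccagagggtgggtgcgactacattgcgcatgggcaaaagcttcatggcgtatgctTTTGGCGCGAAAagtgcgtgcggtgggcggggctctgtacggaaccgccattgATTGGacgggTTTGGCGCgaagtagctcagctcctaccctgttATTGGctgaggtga
Top2a, part of the rule, held 2 CHR and 6 CCAAT matches. Cdk1, the kinase of mitotic entry, held 2 CHR, 3 CCAAT and 1 E2F matches, and its CHR matches began 71 and 15 bases before the start. Mcm6, a subunit of the replicative helicase, held no CHR match but 2 CCAAT and 3 E2F matches, of which a pair overlap. Among the mitosis lists, with Mki67 and Top2a of the rule added, 64 of 70 genes matched a RefSeq promoter. Of these, 29.7% held a CHR match and 70.3% a CCAAT match, against 16.3% and 34.5% of all 27025 promoters. Both together were in 26.6% against 5.73%. An E2F match was in 8 of 37 matched replication genes (21.6%), of 44 listed, against 1.91% of all promoters. The elements were not confined to 1 kind of list. Of the matched replication genes 59.5% held a CCAAT match and 13.5% a CHR match, and 6.25% of the matched mitosis genes held an E2F match. These matches are letters in a window and do not show binding.

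Genes of mitosis separated the members most. Of 6527 genes averaging 20 CPM or more, 320 (4.9%) were at least 2-fold higher in members than in non-dividing barcodes in each of the 3 libraries and 2 (0.0306%) at least 2-fold lower. Without marked barcodes these were 250 of 6429 (3.89%) and 0 (0%), and in the high group 371 of 6470 (5.73%) and 8 (0.124%). Of 26 kinetochore and checkpoint genes, 20 of the 21 with enough signal were higher by this rule, with median log2 ratios of 6.26, 6.72 and 6.77 in WT, FLOX and VC. Of 27 spindle, motor and cytokinesis genes, 21 of 21 were higher (medians 5.62, 5.76 and 5.98). Of these 21 and 21 genes, 20 and 16 passed the minimum of 20 CPM only through the members, so their counts are fixed in part by the choice of cells. Over all genes tested the medians were 0.01, -0.00 and -0.04.

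Cenpf, a kinetochore protein of late cycle, stood at 556 (WT), 465 (FLOX) and 408 (VC) CPM against 1.25, 0.744 and 0.463. It was present in 26 of 72, 23 of 51 and 13 of 26 unmarked members. Prc1, which bundles the microtubules of the central spindle, stood at 399.6 (WT), 387 (FLOX) and 361 (VC) CPM against 1.64, 0.818 and 0.617. Hmmr, a spindle assembly factor, stood at 163 (WT), 106 (FLOX) and 129.7 (VC) CPM against 0.446, 0.297 and 0.103. Nusap1, another spindle protein, was at 201, 172 and 264 CPM against 1.16, 0.521 and 0.309. Birc5 (survivin, of the chromosomal passenger complex) stood at 171 (WT), 192 (FLOX) and 217 (VC) CPM against 0.922, 0.483 and 0.566, and Nuf2, of the Ndc80 kinetochore complex, at 59.2 (WT), 69.3 (FLOX) and 89.6 (VC) CPM against 0.298, 0.149 and 0.103. All of these were near 0 in non-dividing endothelium in each library, and the members' levels of a gene lay within a factor of 2 of each other across libraries. For some of the steepest genes no UMI was found in a non-dividing group, as for Melk in FLOX and Pbk and Pimreg in VC, where members held 47.7, 94.3 and 47.2 CPM. Single barcodes weighed on the sums in VC, where 1 barcode held 37.0% of the Cenpf UMIs.

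Ubiquitin genes of mitotic exit were high in part. Of 8 genes tested, 4 were higher in all libraries: Ube2c, Cdc20, Ube2s and Fzr1. Of the 8 genes, 4 passed the minimum only through the members, and Ube2c, Cdc20 and Fzr1 were among these. Ube2c, the conjugating enzyme of the anaphase-promoting complex, stood at 179 (WT), 140.1 (FLOX) and 141 (VC) CPM against 1.04, 0.818 and 0.412. Cdc20, its activator, stood at 68.1, 46.2 and 51.9 CPM against 1.64, 1.49 and 1.29. Ube2s had log2 ratios of 1.61, 1.48 and 1.85, and Fzr1 of 1.07, 1.15 and 1.44. Of 17 genes of chromosome structure 15 were higher, and 6 of the 17 passed the minimum only through the members. Among the 15 were the condensin subunits Ncapg and Smc2, and Lmnb1, the lamin of the nuclear envelope. Ncapg stood at 68.1 (WT), 72.4 (FLOX) and 91.9 (VC) CPM against 0.714, 0.595 and 0.669. Lmnb1 stood at 183 (WT), 262 (FLOX) and 285 (VC) CPM against 11.7, 11.6 and 10.0. Smc2 was expressed in non-dividing cells too, at 31.2, 32.8 and 29.3 CPM, and stood at 286, 380.4 and 406 CPM in members. Smc2 and Lmnb1 thus differed by less than the kinetochore genes, whose levels in non-dividing cells were near 0.

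Replication genes were higher with smaller ratios. Of 34 genes of origin licensing and DNA replication, 24 of 25 tested were higher in all libraries, with median log2 ratios of 2.42, 3.11 and 3.35, and 20 of the 25 passed the minimum only through the members. Uhrf1, which recruits the maintenance DNA methyltransferase, stood at 52.5 (WT), 103 (FLOX) and 87.2 (VC) CPM against 1.55, 1.93 and 1.80. Hells, a chromatin remodeller of replicating cells, stood at 91.0 (WT), 137 (FLOX) and 193 (VC) CPM against 6.67, 8.44 and 9.11. Cdt1, which loads the helicase, stood at 29.6, 49.3 and 44.8 CPM against 3.01, 2.57 and 2.11. Of 9 genes of nucleotide supply 7 were higher, where 5 passed the minimum only through the members, led by Rrm2, the regulated subunit of ribonucleotide reductase (49.6 (WT), 55.4 (FLOX) and 66.0 (VC) CPM against 0.744, 0.186 and 0.154), and Tk1, thymidine kinase (83.6 (WT), 111 (FLOX) and 165 (VC) CPM against 3.06, 4.91 and 3.04). Tyms, thymidylate synthase, had log2 ratios of 2.08, 2.68 and 3.20. Repair genes that act at replication forks were high beside them, 6 of 9 tested, where 6 passed the minimum only through the members, with Brca1 at 32.6, 69.3 and 89.6 CPM against 1.25, 1.04 and 0.823. For Uhrf1, Hells, Rrm2, Tk1, Tyms and Brca1 the members' level was lowest in WT.

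Members differed widely in both programmes. Per unmarked member the mitosis lists ranged from 470 to 40510 CPM (WT, median 1967), 615 to 35660 CPM (FLOX, median 3968) and 830 to 32250 CPM (VC, median 7970). The replication lists ranged from 0 to 12320 CPM (median 989), from 184 to 9195 CPM (median 3561) and from 391 to 10230 CPM (median 5466). Set against 4000 CPM of mitosis genes and 2000 CPM of replication genes, levels chosen after the data had been seen, 15 WT, 19 FLOX and 15 VC members were above both, 10, 6 and 2 above the first alone, 9, 16 and 7 above the second alone, and 38, 10 and 2 above neither. Of non-dividing barcodes, 0 were above both, and 1 in each library was above 4000 CPM of mitosis genes. Above 2000 CPM of replication genes were 37, 65 and 33 (1.35%, 2.06% and 2.03%), more barcodes than the 24, 35 and 22 members above that level. Non-dividing barcodes were shallower, with medians of 10733, 7315 and 10060 UMIs, so fewer UMIs sufficed to pass it. Thus 38 of 72 unmarked WT members held neither programme at these levels, against 10 of 51 in FLOX and 2 of 26 in VC. In the high group 2 of 28, 0 of 27 and 0 of 19 had neither.

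As a share of the UMIs from both kinds of list, replication genes made up a median of 32.1% (WT), 41.7% (FLOX) and 41.0% (VC) in members, against 35.7%, 33.3% and 33.3% in non-dividing barcodes, whose few UMIs set a similar ratio. In the high group 15 of 28 WT, 13 of 27 FLOX and 5 of 19 VC members had a replication share under 25%, and 6, 6 and 4 had one of 50 to 75%. The shares are ranges along a score and not stages.

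Cyclins and their inhibitors showed 3 patterns. Of 15 cyclins and CDKs tested, 8 were at least 2-fold higher in all libraries. Of the 15, 9 passed the minimum of 20 CPM only through the members, among them Ccna2, Ccnb2, Cdk1 and Ccne2. Ccna2, the cyclin of replication and late cycle, stood at 122 (WT), 112 (FLOX) and 127 (VC) CPM against 0.625, 0.335 and 0.412, Ccnb2, a mitotic cyclin, at 94.7, 58.5 and 66.0 CPM against 0.744, 0.483 and 0.617, and Cdk1 at 114 (WT), 105 (FLOX) and 144 (VC) CPM against 2.35, 2.49 and 2.42. Ccne2, the cyclin of replication onset, stood at 31.1, 75.5 and 113 CPM against 2.44, 2.53 and 2.21. The D cyclins, which relay growth signals, were already expressed in non-dividing endothelium. Ccnd1 stood at 184 (WT), 177 (FLOX) and 222 (VC) CPM against 151, 87.6 and 114, with ratios of 1.21 (1.06 to 1.38), 2.02 (1.66 to 2.44) and 1.95 (1.57 to 2.39), whereas Ccnd2 was at 106, 90.9 and 80.2 CPM against 125, 117 and 120.4. In barcodes of a B lineage gate with at least 2 UMIs of Mki67 and Top2a (100, 61 and 20 barcodes), Ccnd1 was at 0.560, 0 and 1.62 CPM and Ccnd3 at 458, 151 and 141 CPM. In those of a neutrophil gate Ccnd1 was at 1.49, 0.638 and 2.49 CPM. Ccnd3 in the members was at 95.5, 108 and 139 CPM, with an interval below that of the B lineage gate in WT and overlapping it in FLOX and VC. In the neutrophil gate Ccnd3 was at 239, 298 and 257 CPM, with intervals above those of the members in each library.

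Of 8 tested genes of CDK inhibitors and the RB family, 3 were at least 2-fold higher in all libraries: the inhibitors Cdkn2c and Cdkn2d, and Rbl1 of the RB family. These 3 passed the minimum of 20 CPM only through the members. Cdkn1c, which encodes p57, an inhibitor linked to quiescence, was lower in members in each library, at 168 (WT), 86.2 (FLOX) and 84.9 (VC) CPM against 264, 267 and 198, with ratios of 0.637 (0.556 to 0.727), 0.322 (0.243 to 0.419) and 0.429 (0.300 to 0.595). Cdkn2c (p18) and Cdkn2d (p19), inhibitors of Cdk4 and Cdk6, were higher: Cdkn2c stood at 76.2 (WT), 67.8 (FLOX) and 73.1 (VC) CPM against 2.47, 2.45 and 2.31, and Cdkn2d had log2 ratios of 2.70, 3.06 and 3.16. Cdkn1a (p21, a target of p53) had ratios of 1.61 (1.36 to 1.90), 3.12 (2.61 to 3.71) and 1.20 (0.941 to 1.52); non-dividing endothelium in VC already held 143 CPM of it, against 69.4 in WT and 68.5 in FLOX. Cdkn1b (p27) had ratios of 1.07 (0.874 to 1.29), 0.977 (0.715 to 1.30) and 0.913 (0.604 to 1.32), and the 3 intervals include 1. Of the cell cycle transcription factors 4 of 5 tested were higher, and 3 of the 5 passed the minimum only through the members. Foxm1, an activator of mitosis genes and 1 of these 3, stood at 35.5 (WT), 38.5 (FLOX) and 63.7 (VC) CPM against 1.04, 0.483 and 0.772. E2f7, a repressor of replication genes, passed it in non-dividing barcodes too. It stood at 84.4 (WT), 108 (FLOX) and 120.2 (VC) CPM against 30.9, 23.5 and 29.3. E2f1 lay under the minimum, at 28.1, 30.8 and 49.5 CPM against 2.08, 3.16 and 2.26. Myc stayed low, with 6, 8 and 4 UMIs in all members.

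Vessel subtype was read from gates of at least 2 UMIs after thinning every barcode to 2000 UMIs. Most members were sinusoidal by the gate of Stab1 and Stab2, scavenger receptors of sinusoids: 60 of 72 WT members (83.3%, 72.7 to 91.1) against 88.4% (87.1 to 89.6), 37 of 51 FLOX members (72.5%, 58.3 to 84.1) against 83.6% (82.2 to 84.8) and 19 of 26 VC members (73.1%, 52.2 to 88.4) against 82.9% (81.0 to 84.7). The share was lower than in non-dividing barcodes in each library, with overlapping intervals. With marked barcodes kept, it was 79.8% (70.2 to 87.4), 57.3% (46.8 to 67.3) and 62.9% (44.9 to 78.5) against 88.3% (87.0 to 89.5), 82.9% (81.6 to 84.2) and 82.6% (80.7 to 84.4), and the intervals in FLOX and VC did not overlap. The venular gate of Ackr1 and Selp, an atypical chemokine receptor and P-selectin, held fewer members: 17 of 72 WT members (23.6%, 14.4 to 35.1) against 41.2% (39.3 to 43.1), 12 of 51 FLOX members (23.5%, 12.8 to 37.5) against 42.1% (40.4 to 43.9) and 3 of 26 VC members (11.5%, 2.45 to 30.2) against 41.5% (39.0 to 43.9). Here the intervals of members and non-dividing barcodes did not overlap in any library. The Aplnr Kit gate, the apelin receptor and the stem cell factor receptor of immature or sprouting endothelium, held more members in both controls: 14 of 72 WT members (19.4%, 11.1 to 30.5) against 7.89% (6.90 to 8.97), 7 of 51 FLOX members (13.7%, 5.70 to 26.3) against 4.65% (3.94 to 5.45) and 0 of 26 VC members (0%, 0 to 13.2) against 4.41% (3.46 to 5.53). With marked barcodes kept, it was 7 of 96 in FLOX (7.29%, 2.98 to 14.4) against 4.77% (4.06 to 5.57), with overlapping intervals. A count of 0 of 26 in VC allows a share of up to 13.2%, so the share in VC could not be told from the 4.41% of non-dividing barcodes.

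Read the other way, the share of members was taken among the unmarked members and non-dividing barcodes of a gate. Barcodes with 1 UMI of Mki67 and Top2a were left out. In the Aplnr Kit gate it was 6.14% (3.40 to 10.1), 4.61% (1.87 to 9.26) and 0% (0 to 5.06) in WT, FLOX and VC. In the venular gate it was 1.5% (0.876 to 2.39), 0.905% (0.468 to 1.58) and 0.448% (0.0924 to 1.30), and in the sinusoidal gate 2.44% (1.87 to 3.13), 1.40% (0.988 to 1.92) and 1.40% (0.848 to 2.18). The arterial gate held 3 of 72 members in WT (4.17% against 3.69%), and 0 of 51 in FLOX and 0 of 26 in VC, against 7.05% and 5.34% of non-dividing barcodes. With marked barcodes kept, 6 of 96 FLOX members passed the arterial gate. The capillary gate of Gpihbp1 and Crispld1 held 29.2%, 31.4% and 19.2% of members against 34.1%, 33.4% and 28.6%. Without thinning, the deeper members were ahead in 3 of 3 libraries for the capillary and arterial gates, so these 2 gates are read only at equal depth.

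**Figure D3:**
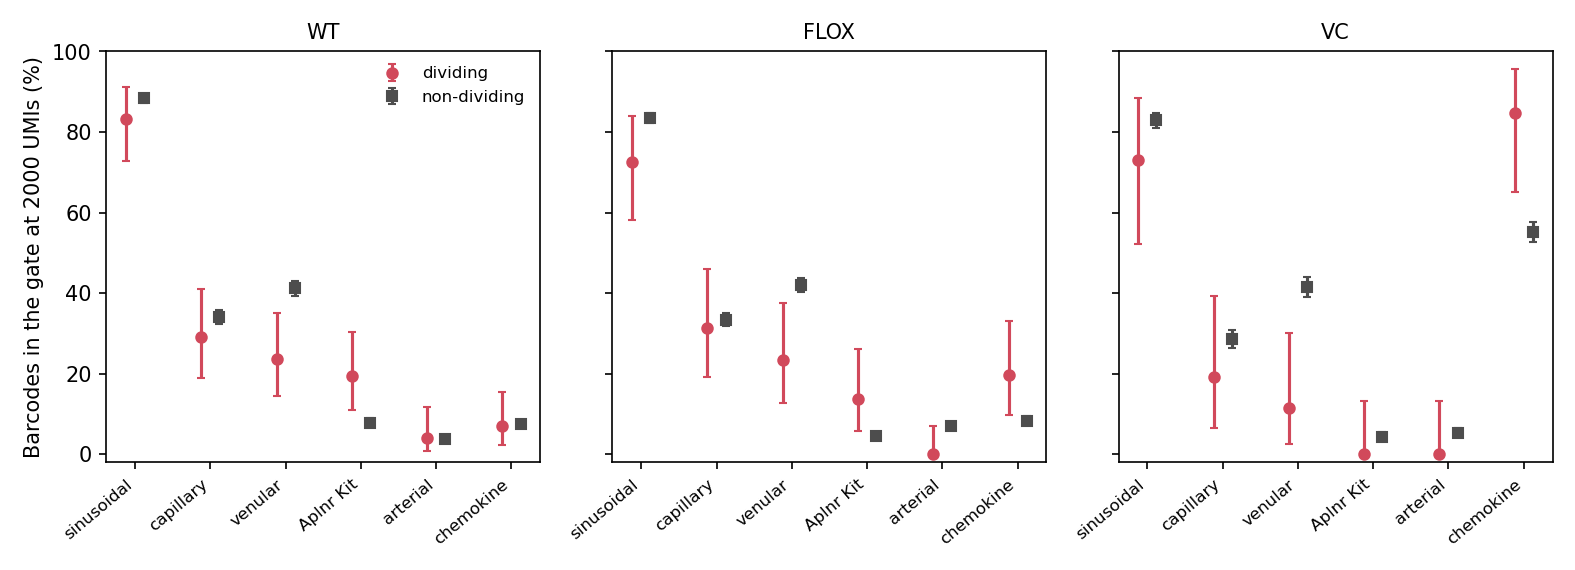
Share of unmarked dividing (circles) and non-dividing (squares) endothelial barcodes with at least 2 UMIs of each gate after thinning to 2000 UMIs, in percent on the y axis, by gate on the x axis and by library; bars are exact 95% intervals. Dividing barcodes lie below non-dividing ones in the venular gate in all 3 libraries, above them in the Aplnr Kit gate in WT and FLOX, and above them in the chemokine gate in FLOX and VC.

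The gate genes were also read as levels over all UMIs. Aplnr stood at 273 (WT), 225 (FLOX) and 134 (VC) CPM against 161, 102 and 96.6, with ratios of 1.69 (1.52 to 1.88), 2.21 (1.86 to 2.61) and 1.39 (1.05 to 1.81), and was present in 55 of 72, 36 of 51 and 14 of 26 members. Kit stood at 31.8 (WT), 47.7 (FLOX) and 16.5 (VC) CPM against 27.9, 22.2 and 19.1, and 1 FLOX member held 32.3% of its 31 UMIs there. Ackr1 stood at 181 (WT), 143 (FLOX) and 127 (VC) CPM against 264, 342 and 387, with ratios of 0.686 (0.601 to 0.778), 0.419 (0.338 to 0.514) and 0.329 (0.247 to 0.430). Selp had ratios of 0.751 (0.685 to 0.822), 0.805 (0.699 to 0.922) and 0.620 (0.502 to 0.757). The arterial genes Efnb2, the ephrin ligand of arteries, and Sema3g had their lowest ratios in FLOX and VC members. Sema3g had ratios of 0.776 (0.516 to 1.12), 0.352 (0.197 to 0.582) and 0.361 (0.155 to 0.714). Efnb2 stood at 54.8 (WT), 12.3 (FLOX) and 11.8 (VC) CPM against 52.4, 60.2 and 47.7, and 1 barcode held 32.4% of the WT sum. Over the 5 tested genes of the arterial list the median log2 ratio in FLOX was -1.51, and 0.09 with marked barcodes kept.

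Members kept an endothelial and mainly sinusoidal profile at a reduced level. All 6 genes of the sinusoidal list were lower in members in each library, none by 2-fold, with median log2 ratios of -0.28, -0.27 and -0.22, and in the high group -0.50, -0.47 and -0.54. With marked barcodes kept, the medians were -0.53, -0.93 and -0.61. Il6st, the shared receptor chain of the interleukin-6 family, stood at 2046 (WT), 1856 (FLOX) and 1568 (VC) CPM against 3124, 2944 and 3073, and Vcam1, a leukocyte adhesion molecule, at 1064 (WT), 2037 (FLOX) and 1879 (VC) CPM against 1442, 2813 and 2699.8. Stab2 had ratios of 0.903 (0.864 to 0.943), 0.926 (0.863 to 0.992) and 0.865 (0.789 to 0.947). Of 14 endothelial identity genes, 11 were lower in all 3 libraries and none was higher in all 3, with medians of -0.10, -0.23 and -0.33. With marked barcodes kept, 14 of 14 were lower, with medians of -0.38, -0.74 and -0.48, where 2470 of 6526 gene symbols tested were lower in all 3. Erg, a transcription factor of endothelium, had ratios of 0.746 (0.603 to 0.913), 0.784 (0.563 to 1.06) and 0.761 (0.480 to 1.15). Among 6428 gene symbols tested, 1635 (25.4%) were higher and 1713 (26.6%) lower in all 3 libraries.

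**Figure D4:**
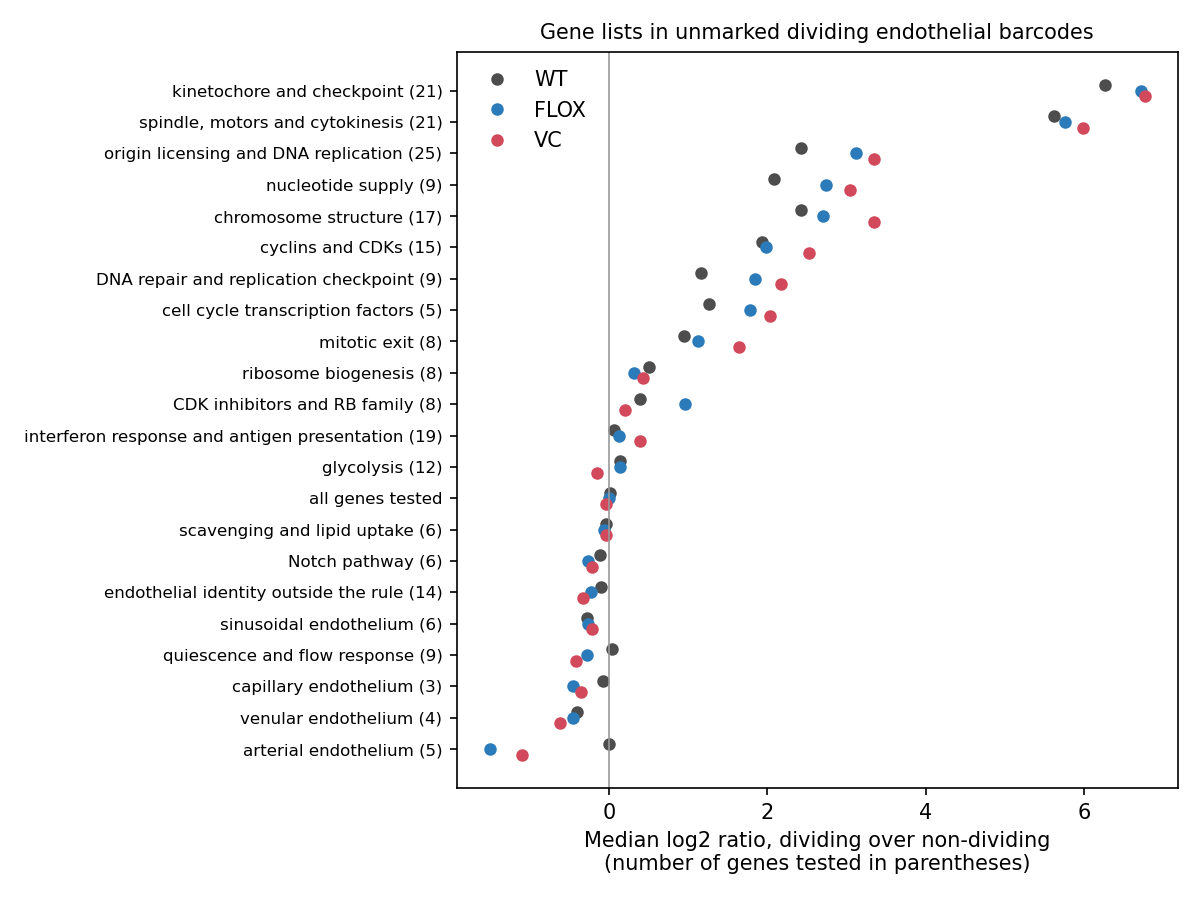
Median log2 ratio of dividing over non-dividing unmarked endothelial barcodes (x axis) for gene lists (y axis, with the number of genes tested), 1 point per library. The kinetochore and spindle lists lie between 5.62 and 6.77, and the sinusoidal, identity and venular lists lie below 0 in each library.

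Receptors and ligands of the VEGF family had 0 of 4 tested genes past 2-fold in either direction, where 3.89% of all genes were higher and 0% lower. Flt4, which encodes the VEGF-C receptor VEGFR3, stood at 582 (WT), 601 (FLOX) and 712 (VC) CPM against 669, 717 and 794, with ratios of 0.870 (0.809 to 0.934), 0.838 (0.756 to 0.926) and 0.897 (0.798 to 1.01). The co-receptors Nrp1 and Nrp2 had log2 ratios of -0.11, -0.19 and -0.40 and of 0.02, 0.02 and -0.27. Vegfb, a ligand of VEGFR1, was higher in each library, at 45.9 (WT), 60.1 (FLOX) and 80.2 (VC) CPM against 29.6, 32.3 and 27.8, and was present in 34 of 72, 25 of 51 and 17 of 26 members. Vegfc itself had 1 UMI in WT members and none in FLOX or VC members, and stood at 1.64, 0.781 and 0.309 CPM in non-dividing barcodes, so deletion could not be judged in the dividing cells.

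The share of endothelial barcodes that were members was 3.07% (2.49 to 3.75) for WT, 2.77% (2.25 to 3.38) for FLOX and 1.97% (1.38 to 2.73) for VC. After thinning to 2000 UMIs it was 1.16% (0.806 to 1.60) for WT, 1.55% (1.17 to 2.03) for FLOX and 0.912% (0.522 to 1.48) for VC, leaving out 28, 47 and 19 shallower barcodes. Without marked barcodes it was 2.43% (1.91 to 3.05) for WT, 1.54% (1.15 to 2.01) for FLOX and 1.53% (1.00 to 2.24) for VC, and thinned it was 0.852% (0.552 to 1.25) for WT, 0.764% (0.495 to 1.13) for FLOX and 0.836% (0.458 to 1.40) for VC. These last 3 intervals overlapped. Thinned to 4000 UMIs it was 1.16% (0.792 to 1.63) for WT, 1.02% (0.692 to 1.46) for FLOX and 1.19% (0.716 to 1.85) for VC, and the intervals overlapped again. The order depended on the threshold: with at least 1 UMI of Mki67 and Top2a at 4000 UMIs the share was 3.94% (3.25 to 4.73) for WT, 3.00% (2.42 to 3.69) for FLOX and 2.19% (1.53 to 3.03) for VC, with WT above VC and no overlap of their intervals, and at 2000 UMIs it was 2.42% (1.89 to 3.04) for WT, 1.96% (1.51 to 2.49) for FLOX and 1.61% (1.06 to 2.34) for VC, with overlap. The high group made up 0.945% (0.629 to 1.36) for WT, 0.813% (0.537 to 1.18) for FLOX and 1.12% (0.677 to 1.75) for VC.

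**Figure D5:**
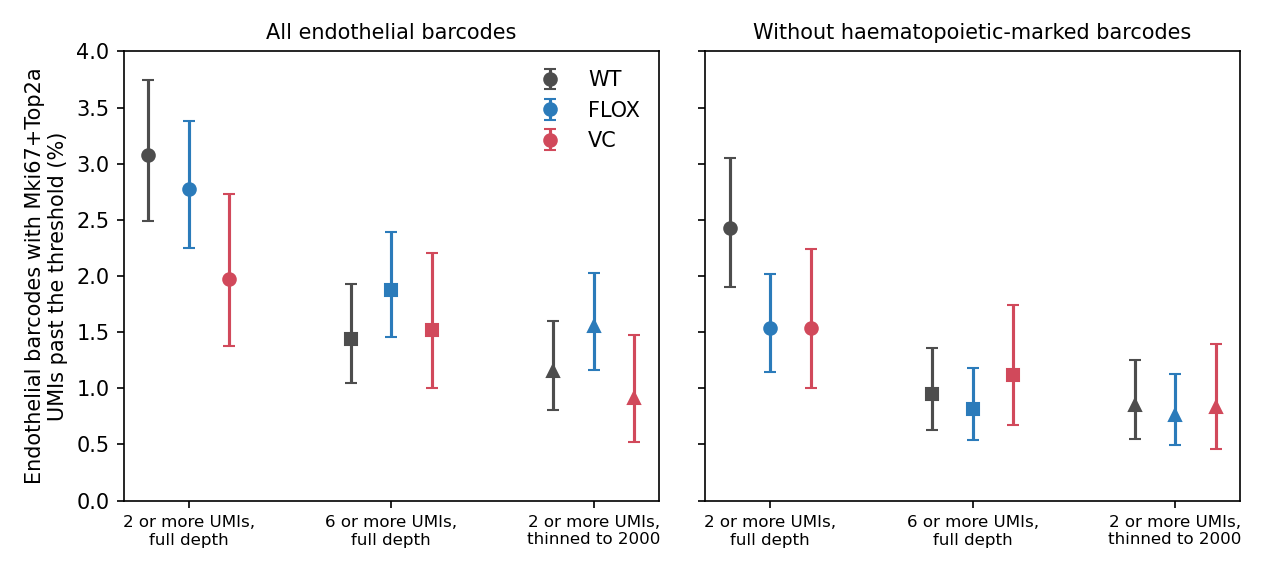
Percent of endothelial barcodes (y axis) with 2 or more UMIs of Mki67 and Top2a at full depth, with 6 or more, and with 2 or more after thinning to 2000 UMIs (x axis), by library, for all barcodes (left) and without marked ones (right); bars are exact 95% intervals. With 2 or more UMIs at full depth WT is highest in both panels; on the right the thinned shares lie between 0.764% and 0.852%.

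Other cells of the same libraries served as a scale. In a stromal gate (at least 50 UMIs of Cxcl12 and none of Cdh5), 1 of 240, 17 of 1049 and 16 of 442 barcodes had at least 2 UMIs of Mki67 and Top2a, or 0.417%, 1.62% and 3.62%, at median depths of 10294.5, 11247 and 13475.5 UMIs, and without marked barcodes 0 of 214 (an exact upper bound of 1.71%), 11 of 982 and 5 of 383. In VC the endothelial share was 1.97% against this 3.62% with marked barcodes kept, and 1.53% against 1.31% (0.425 to 3.02) without them. Stromal barcodes past the threshold held 10570, 7956 and 7759 CPM of the mitosis lists against 933, 1050 and 942 in stromal barcodes at 0 UMIs. The WT value is 1 marked barcode; without marked barcodes the levels were 9396 CPM in FLOX and 12520 in VC against 1052 and 939.8. In B lineage and neutrophil gates without Cdh5 the shares were 29.5%, 16.4% and 11.9%, and 50.6%, 44.1% and 31.5%. Barcode sequences shared between libraries numbered 10 for WT and FLOX, 6 for WT and VC and 5 for FLOX and VC, and 1 of the last was a member in both.

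Between genotypes the members of VC stood apart in interferon genes, as did non-dividing VC endothelium. Of 3568 genes averaging 50 CPM or more in unmarked members, 119 (3.34%) exceeded both controls in VC by 1.5-fold or more, and by more than the controls differed, and 136 (3.81%) lay below both. Setting WT apart in the same way gave 89 and 69, and setting FLOX apart 20 and 57, in groups of 424144 (VC), 1351287 (WT) and 649370 (FLOX) UMIs. In unmarked non-dividing barcodes VC had 59 higher (1.73% of 3408) and 2 lower (0.0587%). With marked barcodes kept, the counts were 97 (2.75%) and 73 (2.07%) of 3525 in members and 59 (1.72%) and 2 (0.0584%) of 3424 in non-dividing barcodes. Of 18 tested genes of the interferon and antigen presentation list, 18 were higher in VC members than in both controls, with median log2 ratios of 3.25 over WT and 3.00 over FLOX. They were 17 of 17 in non-dividing barcodes, with medians of 2.46 and 2.67. The minimum of 50 CPM was a mean over the libraries, so a gene high in VC could pass it through VC alone. Cd74 and Gbp5, for example, lay under 50 CPM in both controls. These counts are thus fixed in part by the minimum.

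Cxcl9, an interferon-induced chemokine that attracts T cells, stood at 5309.5 CPM in VC members against 235 in WT and 308 in FLOX members, and 3466, 212 and 163 CPM in non-dividing barcodes in the same order. Cxcl10, its relative, stood at 1146 CPM in VC members against 27.4 in WT and 57.0 in FLOX members, and 674, 25.2 and 50.7 CPM in non-dividing barcodes in the same order. The chemokine gate of both held 5 of 72 WT members (6.94%, 2.29 to 15.5) against 7.41% (6.45 to 8.46), 10 of 51 FLOX members (19.6%, 9.82 to 33.1) against 8.37% (7.42 to 9.40) and 22 of 26 VC members (84.6%, 65.1 to 95.6) against 55.3% (52.8 to 57.7). With marked barcodes kept, the FLOX share was 11.5% (5.86 to 19.6) against 8.26% (7.33 to 9.27). Cd74, the invariant chain of class II antigen presentation, stood at 667 CPM in VC members against 2.96 in WT and 32.3 in FLOX members, and 477, 3.63 and 12.1 CPM in non-dividing barcodes in the same order, and was present in 21 of 26 VC members. Gbp5, a guanylate-binding protein, stood at 266 CPM in VC members against 22.2 in WT and 35.4 in FLOX members, and 127, 16.1 and 17.8 CPM in non-dividing barcodes in the same order. Dividing VC cells thus held these 4 transcripts at levels at or above those of non-dividing VC cells, and the ratio of members to non-dividing barcodes within VC was 1.53 (1.47 to 1.60) for Cxcl9 and 1.70 (1.55 to 1.86) for Cxcl10. With all 35 VC members 15 of 18 genes of the list were higher than in both controls, again with genes that could pass the minimum through VC alone.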

How the data were processed

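Droplet single-cell 3' RNA libraries of WT, FLOX and VC marrow were used, 1 per genotype. The authors deposited raw UMI counts per gene and barcode. Per the submitters' processing notes, Cell Ranger 2.1.1, Seurat 3.1 and mm10 were used; per the file headers, the matrices carry software version 3.1.0, and which version made them is not settled here. Sort gates are not stated in the labels.

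Barcodes were selected and grouped as the report states, and counts were summed per library and group and divided by the group's total UMIs (CPM). A gene was called at 2-fold or more in the same direction in each library if it averaged 20 CPM or more, with a floor of 3 UMIs. VC was called against both controls at 1.5-fold for genes averaging 50 CPM or more. Shares have exact Clopper-Pearson 95% intervals, ratios conditional binomial ones; they cover counting error only. There are no replicate libraries, so no test was made. Vessel gates and shares were also read after thinning each barcode to 2000 UMIs (seed 7). Doublets were scored with Scrublet in scanpy 1.11.5. Scripts used Python 3.11.15, NumPy 2.4.6, SciPy 1.17.1 and pandas 2.3.3, and calls were tested on simulated data. The 3 libraries held 56853574, 61758462 and 37361779 UMIs.

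Named genes are the division markers, the 12 genes with the largest smallest-library ratio in each direction, up to 5 genes per list with the largest mean absolute log2 ratio, and 15 genes named whatever their values; other genes were chosen after their values were seen. Members and gene lists were chosen with earlier results of these data known. Alternatives covered thresholds, filters, doublets, depth, scaling and each library left out.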

Additional observations from a re-analysis of the deposited data

Results flagged for a closer look

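Klf4, a transcription factor of flow response and quiescence in endothelium, differed in direction between libraries, and the difference was not tested. In unmarked members it stood at 494 CPM against 429 in non-dividing barcodes in WT (log2 ratio 0.20), 276 CPM against 325 in FLOX (-0.24) and 219 CPM against 423 in VC (-0.95). The ratios were 1.15 (1.06 to 1.25), 0.847 (0.726 to 0.982) and 0.519 (0.418 to 0.636), and none of the intervals includes 1. It was present in 55 of 72, 33 of 51 and 19 of 26 members. The members also differed in makeup: 32 of 72 in WT, 17 of 51 in FLOX and 4 of 26 in VC had exactly 2 UMIs of Mki67 and Top2a. The part of this makeup in the Klf4 ratios was not tested.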

How the results depend on the processing

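Of 149 values recomputed under other settings, 91 stayed within the interval or within 1.5 times of the value for all 225 members and 58 did not; the cause was not tested. The share of dividing barcodes in WT, FLOX and VC (3.07%, 2.77% and 1.97%) became 8.37%, 6.07% and 4.85% with 1 UMI of Mki67 and Top2a, 1.93% and 2.23% in WT and FLOX with 3, and 1.18%, 1.53% and 1.35% with 4 UMIs of Cenpf, Prc1, Nusap1 and Tpx2. It became 1.15%, 1.35% and 1.19% without barcodes holding 3 UMIs of any other-cell list, 1.16%, 1.55% and 0.912% thinned to 2000 UMIs, and 1.40% and 2.02% in WT and FLOX thinned to 4000. Without marked barcodes, a setting chosen after seeing the data, it was 2.43% and 1.54% in WT and FLOX, and with 6 UMIs as well 0.945%, 0.813% and 1.12%.

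The 320 genes higher in members became 150 with 1 UMI, 168 without other-cell barcodes, 982 with no minimum CPM, 137 with a minimum of 50 CPM and 496 at 1.5-fold. Leaving out 1 library gave 320 to 389. The 2 genes lower became 0 with 1 UMI, with 10 endothelial UMIs, at 3-fold or without marked barcodes, 1 with no mitochondrial limit, with 5000 to 30000 UMIs or with a minimum of 50 CPM, 13 with 3 UMIs, 17 with the other division genes, 12 without other-cell barcodes, 22 with no minimum CPM, 109 at 1.5-fold, and 8 in the high group. Leaving out 1 library gave 4 to 25: 25 without WT, 4 without FLOX and 8 without VC.

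With all members 97 genes were higher and 73 lower in VC than in both controls. These became 211 and 333 without other-cell barcodes and 523 and 823 with no minimum CPM. The lower count alone became 27 with 1 UMI, 136 without marked barcodes and 260 in the high group.

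Of the 3 libraries, those in which members exceeded non-dividing barcodes numbered 0 for the arterial and capillary gates and 2 for the Aplnr Kit gate. They became 3 and 3 for the arterial and capillary gates without thinning. The arterial gate gave 1 with 3 UMIs, with thinning to 4000 UMIs, with no endothelial minimum in the comparison or without marked barcodes, and the Aplnr Kit gate gave 1 with 3 UMIs. Members with a replication share under 25% were 32.9%, 42.8% with 3 UMIs and 26.2% without marked barcodes. Median-of-ratios scaling moved log2 ratios by -0.03, 0.04 and -0.01 in WT, FLOX and VC. Scrublet called 10, 75 and 10 barcodes (0.232%, 1.31% and 0.365%), so it set few doublets apart. Dividing and non-dividing barcodes were set side by side within each library. Between genotypes no pairing was possible, because the labels give no replicate numbers and each genotype has 1 library.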

Other observations

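Ribosome biogenesis genes were higher in members without reaching 2-fold. Of 8 tested, 8 were higher in all 3 libraries, with median log2 ratios of 0.50, 0.31 and 0.42 in WT, FLOX and VC, where 25.4% of all genes tested were higher and 26.6% lower in all 3. Of 12 glycolysis genes 5 were higher and 3 lower in all 3 libraries, the latter near the share over all genes. With marked barcodes kept, 8 were higher and 1 lower, with median log2 ratios of 0.54, 0.84 and 0.31, where 1855 of 6526 gene symbols tested were higher and 2470 lower. Pgk1, phosphoglycerate kinase, was present in 51 of 72, 30 of 51 and 16 of 26 unmarked members, against 40.2%, 29.3% and 39.6% of shallower non-dividing barcodes. Of 6 Notch pathway genes 4 were lower in all 3 libraries, with medians of -0.11, -0.27 and -0.22.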
